A study of Mus musculus with 9 samples.

Results

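Tetraspanins are small proteins that cross the membrane several times and collect integrins, receptors and enzymes into shared patches. The 9 members described here, *Cd9*, *Cd37*, *Cd53*, *Cd63*, *Cd81*, *Cd82*, *Cd151*, *Tspan13* and *Tspan32*, were taken by gene symbol as tetraspanins of lymphocytes that partner integrins, and all 9 were found among the 25500 entries of the deposited table. Values are FPKM (fragment numbers divided by gene length and library size) in Tregs sorted as GFP+ cells from mouse spleens. KO Tregs came from Foxp3 eGFP-Cre-ERT2 Hsp90b1 fl/fl mice (5 libraries, KO 1 to KO 5), and WT Tregs from Foxp3 eGFP-Cre-ERT2 Hsp90b1 WT/WT mice (4 libraries, WT 1 to WT 4). Both genotypes were on a C57BL/6 background, aged 8 to 12 weeks, and both were given tamoxifen at 75 mg/kg for 10 days, so WT mice carried the same Cre and drug. The Cre is driven by *Foxp3* and active only with tamoxifen, which limits the deletion of *Hsp90b1*, the gene of the chaperone gp96, to *Foxp3*-expressing cells. The question was how the transcripts of these integrin partners stood in Tregs without gp96, a chaperone on which several integrins depend for folding.

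Each tetraspanin has a small and a large extracellular loop, and the large loop binds many of its partner proteins. CD9, CD81, CD82 and CD151 are best known beside β1 integrins, where they affect adhesion and motility. CD37 and CD53 are restricted to blood cells, and mice without CD37 or Tspan32 have T cells that proliferate more readily. On T cells CD81 acts as a costimulator.

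The members lie on chromosomes 2, 3, 6, 7, 10 and 12, with 4 of the 9 (*Cd37*, *Cd81*, *Cd151* and *Tspan32*) on chromosome 7, where *Tspan32* ends 33.1 kb before *Cd81* starts (GRCm38). Promoter windows, the 250 bases before the RefSeq start, were matched for all 9 members, and those of 4 are printed because their transcripts moved in opposite directions with the genotype: *Cd9* and *Cd53* higher in KO Tregs, *Cd81* and *Tspan13* lower, once the libraries that stand apart are set aside. *Cd82* and *Cd37* were also higher there and are not printed. Capitals mark a GC box (GGGCGG or its reverse complement) or a RUNX motif (TGTGGT or its reverse complement). The windows are from RefSeq on GRCm38.p6, at chr6:125494761-125495010 for *Cd9* (minus strand), chr3:106790150-106790399 for *Cd53* (minus strand), chr7:143052500-143052749 for *Cd81* (plus strand) and chr12:36042479-36042728 for *Tspan13* (minus strand).
Cd9: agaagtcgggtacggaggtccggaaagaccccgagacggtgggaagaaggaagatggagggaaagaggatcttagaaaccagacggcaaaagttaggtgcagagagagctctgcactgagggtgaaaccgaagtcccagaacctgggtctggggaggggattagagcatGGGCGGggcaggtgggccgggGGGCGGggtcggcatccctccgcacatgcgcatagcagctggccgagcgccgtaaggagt
Cd53: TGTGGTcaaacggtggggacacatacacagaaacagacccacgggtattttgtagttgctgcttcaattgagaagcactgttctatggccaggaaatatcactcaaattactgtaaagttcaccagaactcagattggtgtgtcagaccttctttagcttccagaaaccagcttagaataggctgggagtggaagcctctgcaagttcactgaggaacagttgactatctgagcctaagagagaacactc
Cd81: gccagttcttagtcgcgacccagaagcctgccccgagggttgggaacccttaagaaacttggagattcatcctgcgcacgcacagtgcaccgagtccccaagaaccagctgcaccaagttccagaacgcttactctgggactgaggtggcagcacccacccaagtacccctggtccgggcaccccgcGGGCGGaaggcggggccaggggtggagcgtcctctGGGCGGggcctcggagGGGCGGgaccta
Tspan13: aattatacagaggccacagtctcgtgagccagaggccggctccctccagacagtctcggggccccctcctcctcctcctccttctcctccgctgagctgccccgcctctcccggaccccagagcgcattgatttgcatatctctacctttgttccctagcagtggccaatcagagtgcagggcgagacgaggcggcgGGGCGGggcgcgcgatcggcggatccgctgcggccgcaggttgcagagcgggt
A GC box, the site of SP and KLF factors, was found in 6 of the 9 windows, and in 32.7% of 32851 RefSeq windows of the same length. Of the genes higher in KO, *Cd9* had 2 matches, *Cd82* and *Cd37* 1 each and *Cd53* none. Of the lower genes, *Cd81* had 3 and *Tspan13* 1. The RUNX motif was found in *Cd53* and *Tspan32* and in 14.0% of all windows, an ETS motif (CCGGAAG) in *Tspan32* alone of the 9 and in 6.91%, and a CRE motif (TGACGTCA) in none of the 9 and in 1.55%. The GC content of the windows lay between 45.2% in *Cd53* and 66.0% in *Tspan13*, against a median of 52.4% over all windows. The 32851 windows were not limited to genes expressed in Tregs, and any part of these motifs in the differences was not tested.

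*Hsp90b1* itself measured 1.77 to 3.11 FPKM in the KO libraries and 44.4 to 62.9 FPKM in the WT libraries. KO 1 and WT 1 lay far from the remaining 7 libraries: the first principal component (58.6% of the variance) placed KO 1 at −67.6 and WT 1 at −69.9, and the others between 8.88 and 26.3. In the study 4 mice per genotype are described. The KO columns in its table of normalized values are numbered from 1 and were matched to KO 2 to KO 5 by their values in an earlier analysis. On that inference the main comparison was KO 2 to KO 5 against WT 1 to WT 4, so that WT 1 remains in it without KO 1. The members are therefore also given for KO 2 to KO 5 against WT 2 to WT 4, and within the pair KO 1 and WT 1. Reads recovered from the FPKM summed to 12059966 to 14697591 per library in KO 2 to KO 5, to 24518439 in KO 1 and to 13880889 to 16664446 in WT. All 9 markers of T cells and Tregs were detected in every library, with a summed level of 1430 to 1575 FPKM in KO 2 to KO 5, 2264 in KO 1 and 1466 to 2276 in WT. The sum was led by *Trac* and hides single markers. *Il2ra* alone was called in the main comparison, lower in KO (log2 difference −1.38, limma adjusted p = 0.00011). It averaged 42.9 FPKM in KO 2 to KO 5 and 114 FPKM in WT. In KO 1 *Foxp3* (54.98 FPKM) and *Ikzf2* (55.5 FPKM) were below the means of KO 2 to KO 5 (108 and 97.2 FPKM). *Ctla4* was also below in KO 1, whereas the other markers, such as *Trac* (1001 FPKM against 540 FPKM), were above. The labels do not tie single libraries to mice, so p-values measure the spread between these libraries.

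The 9 transcripts differed widely in level, and most of the tetraspanin RNA was *Cd53* and *Cd82*. *Cd53*, a leukocyte tetraspanin, averaged 280 ± 14.2 FPKM in KO 2 to KO 5 and 300 ± 127 FPKM in WT (SD, n = 4 each), which placed it 134th of 25490 symbols in WT. *Cd82*, a partner of integrins first known as a metastasis suppressor, averaged 172 ± 6.74 FPKM in KO 2 to KO 5 and 159 ± 47.3 FPKM in WT. Together these genes held 63.8% ± 1.15 of the summed FPKM of the 9 members in KO 2 to KO 5 and 60.0% ± 3.18 in WT. At the other end, *Cd63*, a marker of late endosomes and exosomes, was at 0.0183 to 0.0646 FPKM in the KO libraries and 0.0376 to 0.133 FPKM in WT, which is 1 to 4 and 2 to 8 recovered reads.

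**Figure D1:**
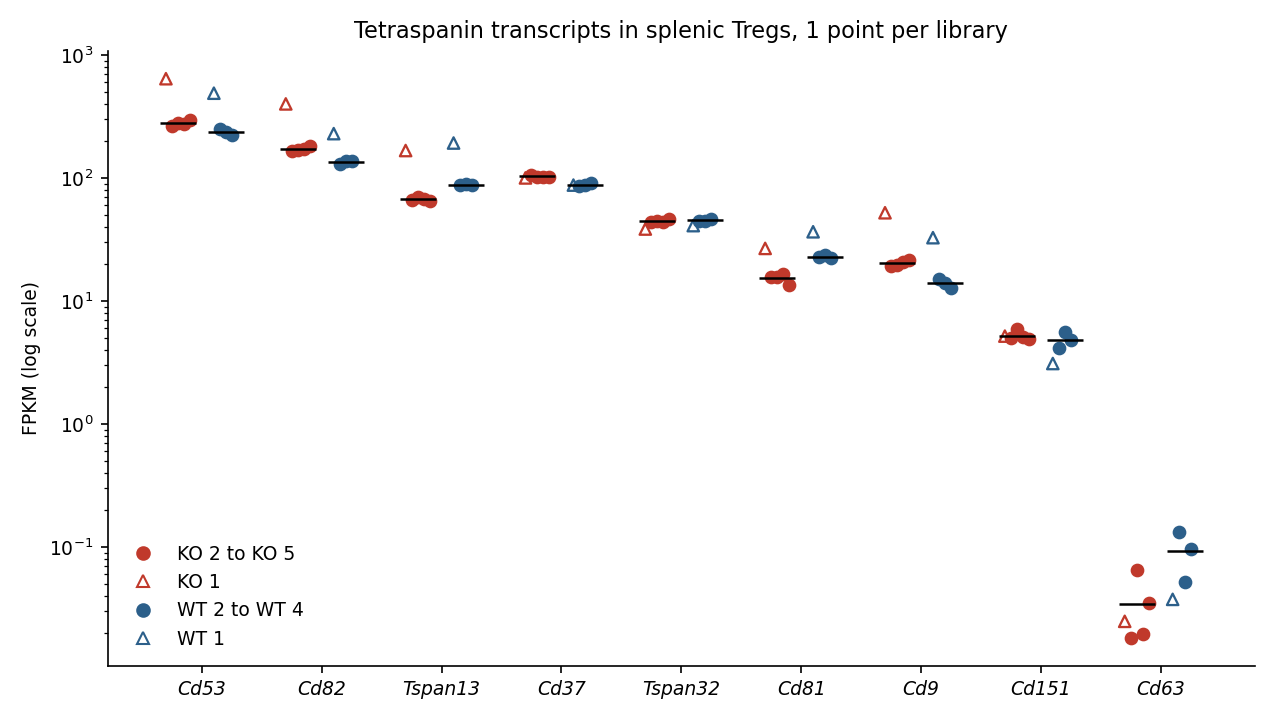
FPKM of the 9 members (log axis) in each library, KO left of WT, with filled circles for KO 2 to KO 5 and WT 2 to WT 4, open triangles for KO 1 and WT 1, and bars at the mean of the filled circles. The triangles of *Cd53*, *Cd82*, *Tspan13*, *Cd81* and *Cd9* sit above all filled circles of the same gene.

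The order of levels was not the same in both genotypes. In KO 2 to KO 5 it ran *Cd53*, *Cd82*, *Cd37*, *Tspan13*, *Tspan32*, *Cd9*, *Cd81*, *Cd151* and *Cd63*, and no neighbours overlapped in range. In WT it ran *Cd53*, *Cd82*, *Tspan13*, *Cd37*, *Tspan32*, *Cd81*, *Cd9*, *Cd151* and *Cd63*, and the ranges of *Cd53* and *Cd82*, *Cd82* and *Tspan13*, *Tspan13* and *Cd37*, and *Cd81* and *Cd9* overlapped. By these means *Cd37* and *Tspan13* stood in opposite order in KO 2 to KO 5 and in WT, and so did *Cd9* and *Cd81*. The order of *Cd37* and *Tspan13* was not steady by library, since *Tspan13* (167 FPKM) was above *Cd37* (100.2 FPKM) in KO 1 and *Cd37* (91.4 FPKM) was above *Tspan13* (88.3 FPKM) in WT 4. In each KO library *Cd9* was above *Cd81*, and in each WT library *Cd81* was above *Cd9*.

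*Cd81* was lower in KO Tregs, the only member called in the main comparison. It measured 15.7, 15.8, 16.7 and 13.5 FPKM in KO 2 to KO 5 and 26.8 in KO 1, against 36.6, 22.8, 23.6 and 22.5 FPKM in WT 1 to WT 4. KO 2 to KO 5 were all below every WT library, whereas KO 1 was below WT 1 but above the other WT libraries. The means were 15.4 ± 1.35 FPKM in KO 2 to KO 5 and 26.4 ± 6.82 FPKM in WT (SD, n = 4 each), a log2 difference on the log2(FPKM + 1) scale of −0.71 (SE 0.16, limma adjusted p = 0.025 over 12237 genes). Without KO 1 and WT 1 the log2 difference was −0.55 (SE 0.07, limma adjusted p = 0.00086), and within the pair KO 1 was at 0.733 of WT 1. The main call was lost on leaving out KO 2, KO 3, KO 4, KO 5 or WT 3 (limma adjusted p = 0.054 to 0.074), and with all 9 libraries and no term for the pair (limma adjusted p = 0.20).

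The summed B cell markers were also lower in KO 2 to KO 5 than in WT. The 12 genes of that list, led by *Cd79b* and *Cd79a*, the signaling chains of the B cell receptor, summed to 15.6 to 17.5 FPKM in KO 2 to KO 5 and 24.0 to 31.4 FPKM in WT, and none was at 0 in all of KO 2 to KO 5. In the pair the sum was 29.2 FPKM in KO 1, where *Ebf1* and *Fcer2a* were at 0, and 26.8 FPKM in WT 1, where *Fcer2a* was at 0. The pair differed by gene, with *Cd79b* at 25.5 FPKM in KO 1 and 21.5 FPKM in WT 1, and *Cd79a* at 1.102 FPKM in KO 1 and 2.14 FPKM in WT 1. Of the 12, 3 were tested, and in the main comparison *Cd79a* was called lower (log2 −1.08, limma adjusted p = 0.044), while *Cd79b* (−0.44, limma adjusted p = 0.062) and *Cd22* (0.06, limma adjusted p = 0.79) were not. The 12 myeloid and dendritic cell markers summed to 3.32 to 13.8 FPKM in KO 2 to KO 5, 23.4 in KO 1 and 13.2 to 53.8 FPKM in WT, and the 7 plasma cell markers to 202 to 266 FPKM in KO 2 to KO 5, 371 in KO 1 and 387 to 685 FPKM in WT. Most of the plasma cell sum was *Ighm*, at 201 to 252 FPKM in KO 2 to KO 5 and 334 to 570 FPKM in WT. Of the 7, 5 were tested, and the main comparison called 3 lower and 1, *Derl3*, higher in KO (log2 0.71, limma adjusted p = 0.046). The 6 CD8 T and NK cell markers summed to 6.28 to 8.70 FPKM in KO 2 to KO 5, 14.1 in KO 1 and 9.91 to 15.0 FPKM in WT. Of these, 2 were tested and none was called in the main comparison. Sums of the neutrophil and erythroid markers overlapped between KO 2 to KO 5 and WT. The part of these other cells in the levels of *Cd81* and *Cd37* was not tested, and in bulk RNA fewer cells of a type and less RNA per cell cannot be told apart.

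*Tspan13*, a broadly expressed tetraspanin, was the other member with lower values. It measured 65.9, 69.8, 67.9 and 65.4 FPKM in KO 2 to KO 5 and 167 in KO 1, against 193, 88.0, 89.3 and 88.3 FPKM in WT 1 to WT 4. Apart from the pair, the libraries of each genotype lay close together and the genotypes did not overlap. The difference was not called in the main comparison (log2 −0.67, SE 0.25, limma adjusted p = 0.11), in which WT 1 made the WT mean 115 ± 52.0 FPKM beside 67.2 ± 2.01 FPKM in KO 2 to KO 5. Without KO 1 and WT 1 it was −0.39 (SE 0.03, limma adjusted p = 0.00016), and within the pair KO 1 was at 0.869 of WT 1.

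*Cd9*, *Cd82*, *Cd53* and *Cd37* were higher in KO Tregs once KO 1 and WT 1 were set aside, and none of the 4 was called in the main comparison. *Cd9*, which joins β1 integrins and the EWI immunoglobulin proteins, measured 19.1, 19.6, 20.9 and 21.5 FPKM in KO 2 to KO 5 and 52.2 in KO 1, against 32.8, 15.2, 14.0 and 12.9 FPKM in WT 1 to WT 4. KO 2 to KO 5 lay above WT 2 to WT 4 and below WT 1, and KO 1 was the highest of all. Its log2 difference was 0.50 without the pair (SE 0.06, limma adjusted p = 0.001), 0.21 in the main comparison (SE 0.26, limma adjusted p = 0.59), and KO 1 was at 1.59 times WT 1.

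*Cd82* measured 165, 170, 173 and 181 FPKM in KO 2 to KO 5 and 401 in KO 1, against 230, 130, 139 and 138 FPKM in WT 1 to WT 4. As for *Cd9*, only WT 1 of the WT libraries reached the KO values. The log2 difference was 0.35 without the pair (SE 0.04, limma adjusted p = 0.00098) and 0.16 in the main comparison (SE 0.19, limma adjusted p = 0.57). KO 1 was at 1.74 times WT 1, the largest ratio within the pair among the 8 members tested.

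*Cd53* measured 265, 281, 276 and 299 FPKM in KO 2 to KO 5 and 642 in KO 1, against 489, 252, 235 and 222 FPKM in WT 1 to WT 4. The lowest KO library was 265 FPKM and the highest of WT 2 to WT 4 was 252 FPKM, so the gap was narrow. The log2 difference was 0.25 without the pair (SE 0.06, limma adjusted p = 0.015), and −0.02 in the main comparison (SE 0.25, limma adjusted p = 0.97), where WT 1 turned its sign. Within the pair KO 1 was at 1.31 times WT 1.

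*Cd37* had steady values, and KO 1 and WT 1 did not stand apart in it. It measured 107, 102, 102 and 103 FPKM in KO 2 to KO 5 and 100.2 in KO 1, against 87.6, 85.8, 88.0 and 91.4 FPKM in WT 1 to WT 4. All 5 KO libraries were above all 4 WT libraries, the only member of which this held over all 9 libraries, where 11.8% of 12235 genes did not overlap (6.08% above and 5.73% below in KO; exact permutation test, p = 0.00794, the smallest possible). The log2 difference was 0.22 in the main comparison (SE 0.08, limma adjusted p = 0.09) and 0.22 without the pair (SE 0.04, limma adjusted p = 0.0028), and KO 1 was at 1.14 times WT 1.

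*Tspan32* and *Cd151* did not differ beyond their spread. *Tspan32*, which restrains T cell proliferation in mice, measured 44.3, 44.6, 43.9 and 46.1 FPKM in KO 2 to KO 5 and 38.5 in KO 1, against 41, 44.7, 44.8 and 46.2 FPKM in WT 1 to WT 4. Its 95% interval of the log2 difference ran from −0.14 to 0.18 in the main comparison and from −0.09 to 0.06 without the pair. *Cd151*, the partner of the laminin-binding integrins, was at 5.05, 5.92, 5.12 and 4.87 FPKM in KO 2 to KO 5 and 5.19 in KO 1, against 3.11, 4.14, 5.60 and 4.87 FPKM in WT 1 to WT 4, and its interval ran from −0.12 to 0.56 and, without the pair, from −0.14 to 0.32. Within the pair KO 1 was at 0.938 of WT 1 for *Tspan32* and at 1.67 times WT 1 for *Cd151*. The groups of both genes overlapped. *Cd63* did not pass the filter of above 1 FPKM in at least 4 libraries, and its level, from few reads, is uncertain. Its coding transcripts share 36.5% to 43.6% of their 50-base windows with a processed pseudogene, *Cd63-ps*. How reads matching both were counted is not given, and any effect on the level was not tested. Exons of *Cd9*, *Cd37*, *Cd81*, *Cd151* and *Tspan32* overlap a gene on the other strand, of which none exceeded 2.51 FPKM in any library. Whether strand was used in the counting is not given.

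In counts, the main comparison called 1 of the 8 members tested, lower in KO, and none higher, beside 13.3% of 12237 genes called (6.58% higher and 6.68% lower). Without KO 1 and WT 1, 4 members were higher and 2 lower, beside 36.6% of 12082 genes called (19.5% higher and 17.1% lower). The same counts, 4 higher and 2 lower, came from all 9 libraries with a term for the pair (36.3% of 12312 genes called, 19.3% higher and 17.0% lower) and from the replicate block over all 9 libraries (28.0% called, 15.0% higher and 13.1% lower). Limma-voom on the recovered reads, chosen for these sets of libraries after seeing the data, gave 4 and 2 as well, without the pair (39.3% of 13776 genes called, 18.5% higher and 20.8% lower) and with a term for it (36.6% of 14464 genes called, 18.1% higher and 18.5% lower). With all 9 libraries and neither term limma called no member (6.76% of genes called, 3.21% higher and 3.55% lower), and 2 members had an unadjusted p under 0.05. The median log2 difference of the 8 members was 0.09 in the main comparison and 0.16 without the pair, against 0.01 and 0.02 over all genes tested. KO 2 to KO 5 did not overlap WT 1 to WT 4 in 3 members (*Cd37* above, *Cd81* and *Tspan13* below; 33.1% of 12235 genes, 15.9% above and 17.2% below) and WT 2 to WT 4 in 6 members (44.8% of genes, 23.6% above and 21.2% below), each with an exact permutation p of 0.0286, the smallest that these group sizes allow. The difference had the same sign within the pair as between the other 7 libraries in all 8 members tested, and in 68.0% of genes.

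**Figure D2:**
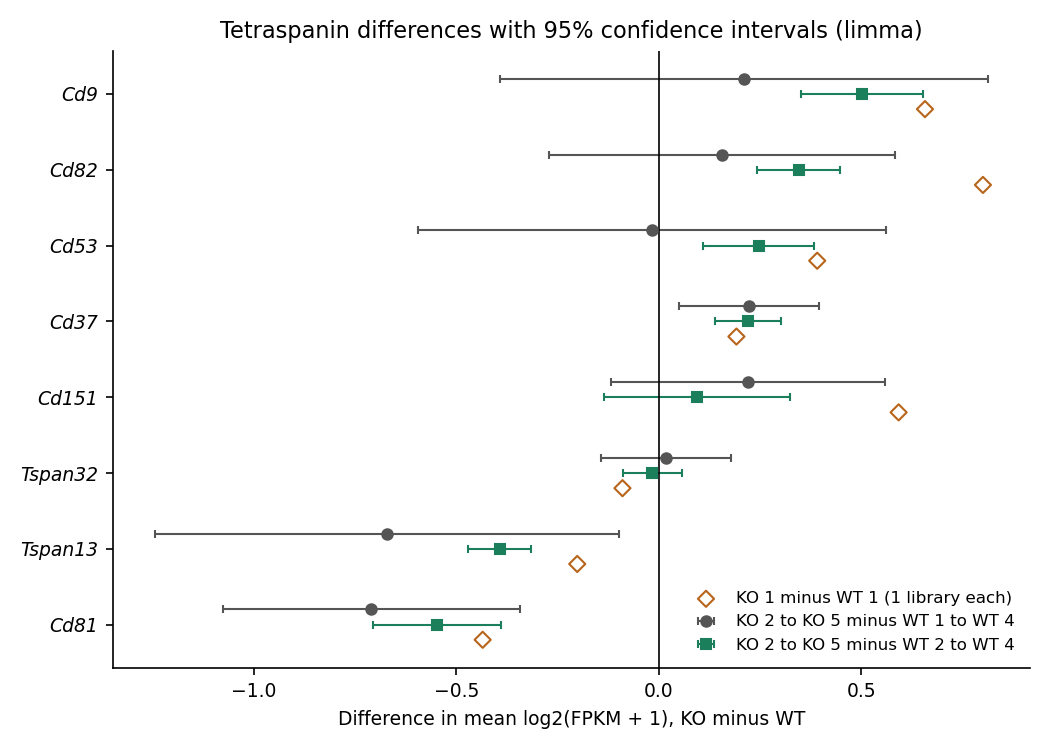
Difference in mean log2(FPKM + 1), KO minus WT, for the 8 members tested, with 95% confidence intervals from limma for KO 2 to KO 5 against WT 1 to WT 4 (circles) and against WT 2 to WT 4 (squares), and the difference of the single libraries KO 1 and WT 1 (diamonds). The intervals of *Cd9*, *Cd82* and *Cd53* cross 0 with WT 1 and lie above 0 without it.

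Without setting any library aside, ratios within a library separated the genotypes for *Cd9*, *Cd53* and *Cd82* over *Cd81* and *Tspan13*. Those of *Cd37*, also higher without the pair, over the same 2 genes overlapped. *Cd37* over *Cd81* was 3.74 to 7.58 in KO and 2.40 to 4.06 in WT. *Cd37* over *Tspan13* was 0.599 to 1.62 in KO and 0.455 to 1.04 in WT. The ratio of *Cd9* to *Cd81* was 1.95, 1.22, 1.24, 1.25 and 1.59 in KO 1 to KO 5, against 0.895, 0.668, 0.594 and 0.572 in WT 1 to WT 4. *Cd9* was thus the more abundant in every KO library and *Cd81* in every WT library, KO 1 and WT 1 included. The ratio of *Cd53* to *Tspan13* was 3.84 to 4.57 in the KO libraries and 2.52 to 2.86 in WT, and that of *Cd82* to *Tspan13* was 2.39 to 2.77 in KO and 1.19 to 1.56 in WT. All 6 ratios of *Cd9*, *Cd53* or *Cd82* over *Cd81* or *Tspan13* were higher in every KO library than in any WT library. Between KO 2 to KO 5 and WT 2 to WT 4 this had to follow, since none of these genes overlapped there. Only KO 1 and WT 1 therefore add to what the single genes show. Over the 28 pairs of tested members, 8 had ratios that did not overlap between the genotypes in all 9 libraries (28.6%), the other 2 being *Cd9* over *Cd53* and *Cd37* over *Tspan32*, beside 13.7% of 68556195 pairs among 11710 genes above 0 in every library. The pairs share genes, and these ratios were chosen after the values had been seen, so they are given as a description without a test.

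**Figure D3:**
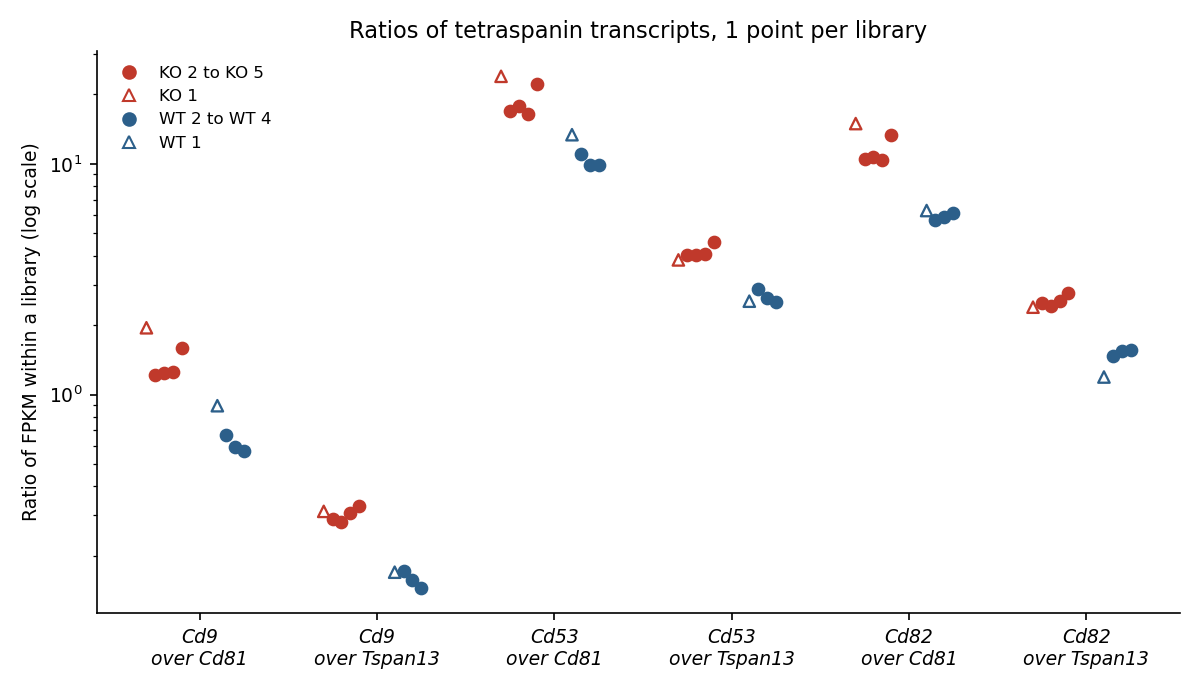
Ratio of FPKM within each library (log axis) for *Cd9*, *Cd53* and *Cd82* over *Cd81* and over *Tspan13*, KO left of WT, with open triangles for KO 1 and WT 1. In all 6 ratios every KO point lies above every WT point.

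The gap between the pair and the other libraries was itself uneven across the members. KO 1 and WT 1 were both above all other 7 libraries in *Cd53*, *Cd82*, *Tspan13*, *Cd81* and *Cd9*, as in 35.4% of genes, with ratios of means from 1.70 in *Cd81* to 2.41 in *Cd9*. In *Tspan32* both were below the other 7, as in 28.1% of genes, with a ratio of 0.885. *Cd37* (0.970) and *Cd151* (0.816) did neither. The summed FPKM of the 9 members was therefore 1433 in KO 1 and 1113 in WT 1, against 709 ± 19.3 in KO 2 to KO 5 and 636 ± 8.39 in WT 2 to WT 4. The FPKM of all genes also summed highest in the pair, to 432639 in KO 1 and 452044 in WT 1. In the other 7 libraries that sum ran from 262357 (KO 3) to 373958 (WT 3), so part of the step was not particular to the members. The genes whose profile over the 9 libraries was closest to that of *Cd81* were *Snrpf* (Pearson r of log2(FPKM + 1) 0.996), a core spliceosome protein, and *Wdr6* (0.995), out of 12234 genes, and the shared step of the pair enters both values.

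**Figure D4:**
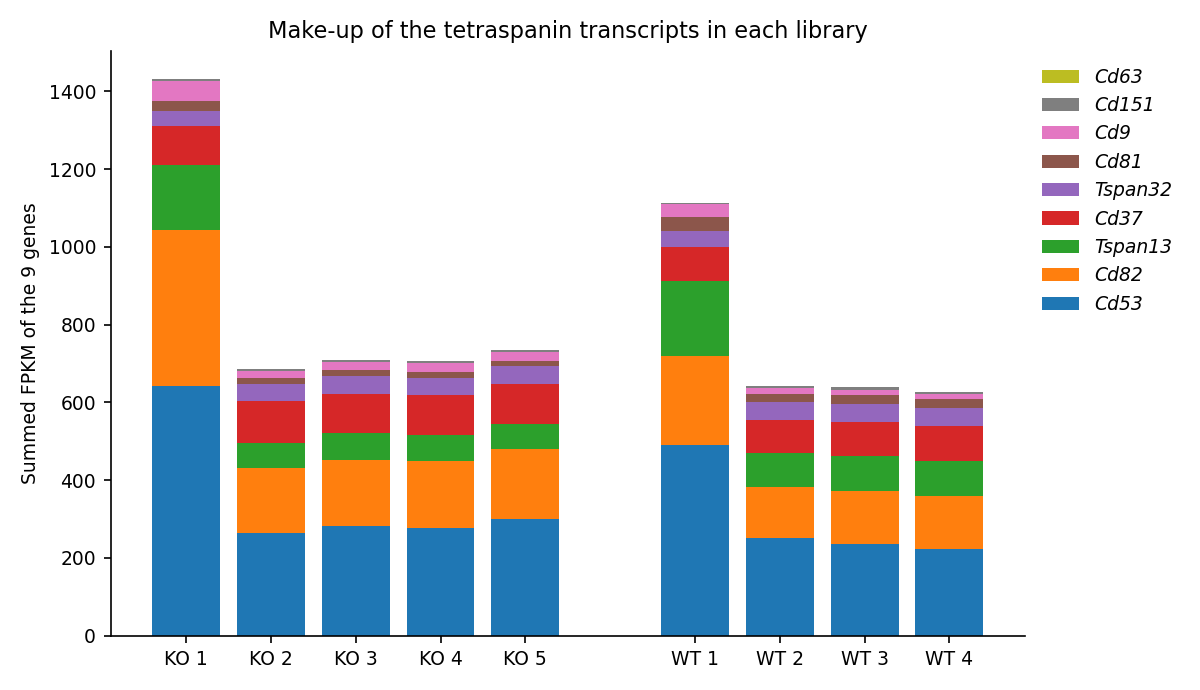
Summed FPKM of the 9 members in each library, stacked by gene, KO left of WT. KO 1 (1433 FPKM) and WT 1 (1113 FPKM) exceed the other 7 libraries, and *Cd53* and *Cd82* make the largest blocks in every library.

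Among the other tetraspanins, 18 of the 22 genes listed were found in the table and 8 passed the filter. In the main comparison 2 of the 8 were higher in KO Tregs and none lower, beside 6.58% of all genes tested higher and 6.68% lower. *Rom1*, known from the outer segments of photoreceptors, measured 13.2, 13.8, 13.5 and 14.9 FPKM in KO 2 to KO 5 and 22.6 in KO 1, against 9.16, 5.52, 7.11 and 6.99 FPKM in WT 1 to WT 4. Every KO library was above every WT library, with a log2 difference of 0.87 (SE 0.13, limma adjusted p = 0.0042) and of 0.98 without KO 1 and WT 1 (limma adjusted p = 0.00018). *Tspan2*, best known in oligodendrocytes, averaged 1.26 ± 0.205 FPKM in KO 2 to KO 5 and 0.601 ± 0.0567 FPKM in WT (log2 difference 0.49, SE 0.11, limma adjusted p = 0.024; without the pair 0.48, limma adjusted p = 0.011). *Tspan31* averaged 10.7 ± 0.817 FPKM in KO 2 to KO 5 and 14.8 ± 3.22 FPKM in WT and was not called (log2 difference −0.41, limma adjusted p = 0.089), but without the pair it was lower in KO (−0.28, limma adjusted p = 0.018), and the pair measured 23.3 FPKM in KO 1 and 19.5 FPKM in WT 1. *Tspan17*, another escort of the protease ADAM10, averaged 2.61 ± 0.350 FPKM in KO 2 to KO 5 and 1.97 ± 0.388 FPKM in WT and was not called (limma adjusted p = 0.15 with and without the pair). *Tspan14*, of the same ADAM10 group, was the most abundant of these genes at 33.7 ± 3.16 FPKM in KO 2 to KO 5 and 35.9 ± 8.75 FPKM in WT, so by the WT means 5 of the 9 members were above every other tetraspanin, though in WT 1 *Tspan14* was above *Tspan32* (49.0 and 41.0 FPKM).

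*Tspan9*, a tetraspanin best known in platelets, was chosen after its values had been seen because its libraries separated most widely. It was listed at 0.109, 0.0956, 0.117 and 0.0912 FPKM in KO 2 to KO 5 and 0.184 in KO 1 (7 to 20 recovered reads), against 1.63, 0.994, 0.813 and 0.930 FPKM in WT 1 to WT 4 (63 to 117 reads). It did not pass the filter. Without the filter its log2 difference was −0.91 (SE 0.12, limma adjusted p = 0.0049), and limma-voom on the recovered reads, which adds no pseudocount of 1 FPKM, gave −3.28 (SE 0.40, adjusted p = 0.0012). *Upk1a*, a uroplakin of the bladder lining, was also below the filter, with 1.05 ± 0.203 FPKM in KO 2 to KO 5 and 0.422 ± 0.110 FPKM in WT (log2 difference without the filter 0.53, SE 0.11, limma adjusted p = 0.029). It rested on 16 to 31 recovered reads in KO 1 to KO 5 and 7 to 13 in WT. The platelet and megakaryocyte markers summed to 3.39 to 4.38 FPKM in KO 2 to KO 5, 1.89 in KO 1 and 1.77 to 3.58 FPKM in WT, and their part in *Tspan9*, which was lower in KO, was not tested.

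The transcripts of proteins that tetraspanins bind did not follow a single direction. Of 26 integrin genes, 16 passed the filter, with 5 higher and 2 lower in KO Tregs, beside 6.58% of all genes tested higher and 6.68% lower. *Itgb1*, the β1 chain that CD9, CD81 and CD151 accompany, averaged 393 ± 24.1 FPKM in KO 2 to KO 5 and 137 ± 26.0 FPKM in WT, with 650 FPKM in KO 1 (log2 difference 1.54, SE 0.15, limma adjusted p = 0.00062; without the pair 1.66, limma adjusted p = 3.27e-06). The others of smallest p were *Itga2*, *Itga7* and *Itgb3* (log2 differences 1.73, 1.99 and 1.39), all higher in KO. The 2 called lower were *Itgb8* (−0.83, limma adjusted p = 0.0016) and *Itga5* (−0.65, limma adjusted p = 0.0026). *Itgb2* and *Itgal*, the chains of the integrin LFA-1, were not called (−0.55 and −0.38, limma adjusted p = 0.075 and 0.11). Without the pair both were lower in KO (−0.38 and −0.26, limma adjusted p = 0.00045 and 0.0017). Of 27 other tetraspanin partners, 21 passed the filter, with none higher and 3 lower: *Ptgfrn*, an EWI protein that binds CD9 and CD81 (1.45 ± 0.119 FPKM in KO 2 to KO 5 and 3.18 ± 0.591 in WT, log2 difference −0.76, limma adjusted p = 0.0046), *Prkca*, a kinase recruited to tetraspanins (17.4 ± 2.92 FPKM in KO 2 to KO 5 and 29.3 ± 1.30 in WT, −0.73, limma adjusted p = 0.0047), and *Ifitm3*, an antiviral membrane protein (1.33 ± 0.647 FPKM in KO 2 to KO 5 and 4.82 ± 0.836 in WT, −1.36, limma adjusted p = 0.0065). Without KO 1 and WT 1 the counts were 6 higher and 6 lower of 16 integrins, and 7 higher and 5 lower of 21 other partners, beside 19.5% of all genes higher and 17.1% lower. The log2 differences were then −0.67 for *Ptgfrn*, −0.73 for *Prkca* and −1.37 for *Ifitm3*, all called (limma adjusted p = 0.00080, 0.0024 and 0.0047). *Rab27a*, the next partner by p, went the other way. It was not called in the main comparison (log2 difference 0.64, limma adjusted p = 0.081) and was higher in KO without the pair (0.86, limma adjusted p = 0.00015). The median log2 difference was −0.03 for the integrins and −0.07 for the other partners in the main comparison, against 0.01 over all genes.

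**Figure D5:**
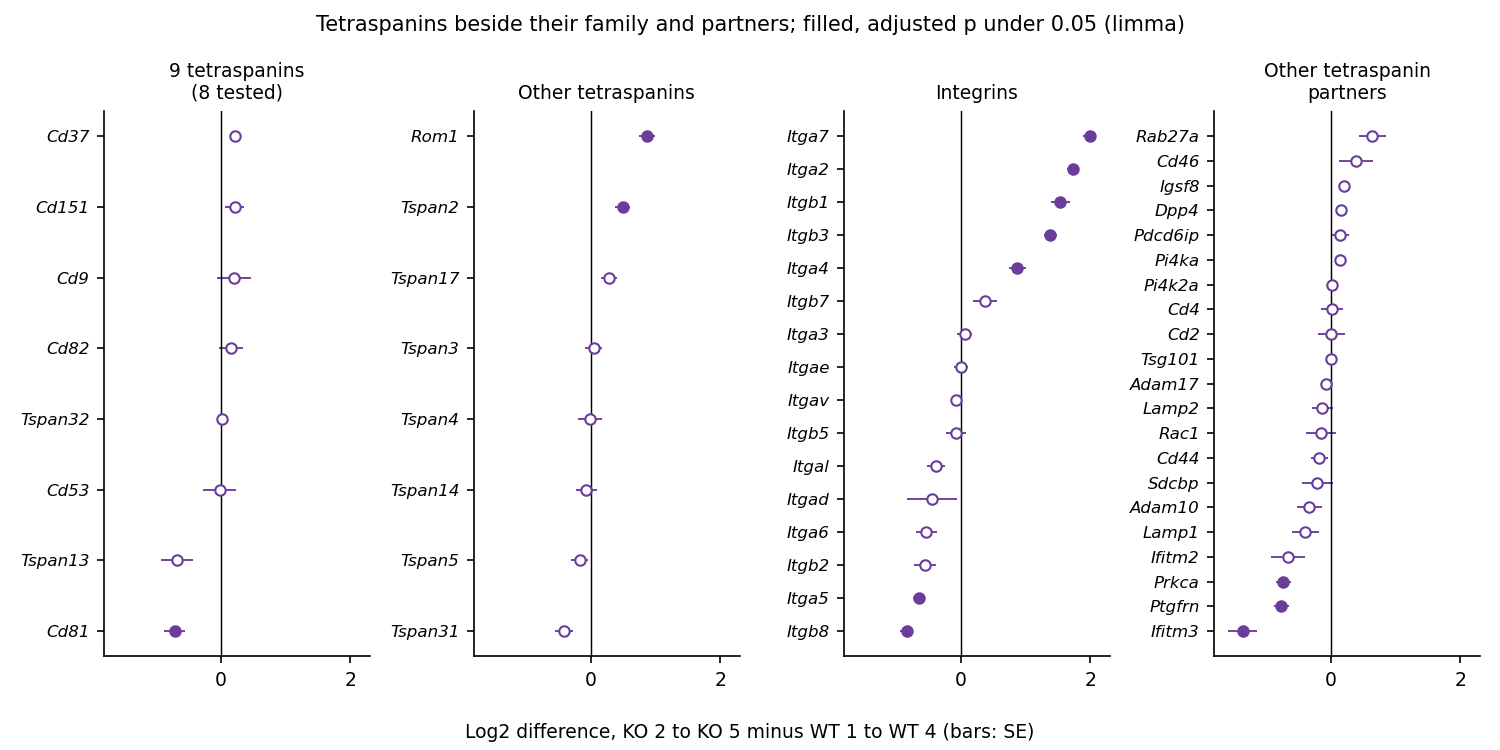
Log2 difference, KO 2 to KO 5 minus WT 1 to WT 4, with SE bars, for the tested genes of 4 lists, filled where the limma adjusted p was under 0.05. The members and the other tetraspanins lie between −0.71 and 0.87, and the integrins reach 1.99.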

How the data were processed

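RNA of sorted splenic Tregs was sequenced paired-end, and the submitters state that all libraries were made at 1 time and shared a lane. Their processing notes name CASAVA, fastp and the mm10 build, without versions, and the aligner, the counter and the annotation are not given. The authors deposited FPKM per gene for 9 libraries, with no separate file of counts. Multiplying FPKM by GENCODE M21 exon length and a constant per library gave whole reads, within 0.01 read in all libraries, for 95.6% of 25500 entries and for all 9 members. Samples were grouped by the labels.

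Differences were tested in limma 3.58.1 (R 4.3.3), trend option, after log2(FPKM + 1). A gene entered if 4 or more of the 8 libraries KO 2 to KO 5 and WT 1 to WT 4 exceeded 1 FPKM, with Benjamini-Hochberg adjustment over all genes tested and a threshold of 0.05. Fold changes are on that scale and understate the change of low genes. The fits were tested on simulated data first. No simulated library stood apart as WT 1 does, so that test does not cover the main comparison in this respect. KO 1 was left out of the main comparison because the 4 KO columns in the normalized table of the study, numbered from 1, matched KO 2 to KO 5 by their values in an earlier analysis. No reason for the absence of KO 1 there is given. Single members were also compared with exact permutation tests (two-sided, difference of mean log2 values). Alternatives were other sets of libraries, omission of single libraries, a block for the replicate number, a pseudocount of 0.1, no filter or above 5 FPKM, median-ratio and upper quartile scaling, and limma-voom on the recovered reads with TMM (trimmed mean of M values) factors. The members and the lists were chosen with earlier results of these data known. Every member is named, and of each other list up to 4 tested genes with the smallest p. Of the integrins, those called lower in the main comparison and *Itgb2* and *Itgal* are named as well. Of the T cell and Treg markers, *Trac* and *Ctla4* are named as well. Promoter sequences came from RefSeq. Tables and figures were made with Python 3.11.15, pandas 2.3.3, numpy 2.4.6, scipy 1.17.1 and matplotlib 3.10.9.

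Deviations from the group means correlated between libraries of the same number over all 9 libraries (r = 0.87 for number 1, 0.43 for 2, 0.31 for 3 and 0.47 for 4), but apart from number 1 so did libraries of different numbers (up to 0.58, for KO 2 and WT 4). Without KO 1 and WT 1 the same-number values were −0.05, −0.19 and 0.03. The labels give no source for a pairing, and the blocked counts are given beside the main ones.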

Additional observations from a re-analysis of the deposited data

Results flagged for a closer look

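In 11 of 18 groups (9 members in 5 KO and in 4 WT libraries) a library lay farther from the rest of its genotype than Dixon's 95% limit, which chance alone passes in about 1 of 20 groups. All 11 were KO 1 or WT 1. The library was the highest of its genotype for *Cd53* (642 FPKM in KO 1 and 489 FPKM in WT 1), *Cd82* (401 FPKM in KO 1 and 230 FPKM in WT 1), *Tspan13* (167 FPKM in KO 1 and 193 FPKM in WT 1), *Cd81* (26.8 FPKM in KO 1 and 36.6 FPKM in WT 1) and *Cd9* (52.2 FPKM in KO 1 and 32.8 FPKM in WT 1). It was the lowest for *Tspan32* (38.5 FPKM in KO 1). The members were not independent of each other here, since the same libraries stand apart in many genes.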

How the results depend on the processing

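Directions of *Cd81*, *Tspan13*, *Cd37*, *Cd9*, *Cd82* and *Cd151* held under every alternative run, and those of *Cd53* and *Tspan32*, never called in the main comparison, did not. The log2 difference of *Cd53* turned to 0.22 with all 9 libraries, 0.25 without KO 1 and WT 1, 0.28 with a term for them, 0.26 with the replicate block and 0.024 with median-ratio scaling, and ran from −0.13 (without WT 4) to 0.25 (without WT 1) on leaving out 1 library, with 0.01 without KO 2. That of *Tspan32* turned to −0.024 with all 9 libraries, −0.016 without KO 1 and WT 1, −0.033 with a term and −0.045 with the block, and ran from −0.016 (without WT 1) to 0.039 (without WT 4). Limma-voom on the recovered reads without KO 1 and WT 1 and with a term for them, chosen after seeing the data, gave 0.24 and 0.28 for *Cd53* and −0.021 and −0.034 for *Tspan32*, with 4 members higher and 2 lower each. The members called numbered 4 higher and 2 lower without KO 1 and WT 1, with a term for them and with the replicate block, 0 lower with all 9 libraries, and 0 to 4 higher and 0 to 2 lower on leaving out 1 library, the upper ends without WT 1. No other alternative changed the count.

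Other tetraspanins higher numbered 1 above 5 FPKM and 1 to 3 on leaving out 1 library. Those lower numbered 1 without KO 1 and WT 1, with no filter and with limma-voom, and 0 to 1 on leaving out 1 library. Integrins lower numbered 6 without KO 1 and WT 1, 5 with a term for them, with the block and with limma-voom, 4 with median-ratio scaling, 0 above 5 FPKM, and 2 to 6 on leaving out 1 library. Other partners higher numbered 7 without KO 1 and WT 1 and with a term, 5 with the block, 1 with median-ratio scaling and 0 to 7 on leaving out 1 library, and those lower 5 without KO 1 and WT 1, 1 above 5 FPKM and 3 to 5 on leaving out 1 library. Over all genes 395 were higher and 437 lower with all 9 libraries, 2359 and 2062 without KO 1 and WT 1, 2377 and 2094 with a term, 1841 and 1607 with the block, 528 and 471 above 5 FPKM, and 327 to 2359 and 387 to 2062 on leaving out 1 library. With KO 1 the KO means were 353 FPKM for *Cd53*, 218 for *Cd82*, 87.2 for *Tspan13*, 43.5 for *Tspan32*, 17.7 for *Cd81* and 26.7 for *Cd9*. The cause of these shifts was not tested. *Cd63* and *Tspan9* in KO rest on 1 to 20 reads, and *Upk1a* in both genotypes on 7 to 31, so their levels carry wide counting error.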

Other observations

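How far KO 1 and WT 1 departed from the other 7 libraries differed between classes of exon length, with 3036 to 3038 tested genes each, and the members can be set beside this. The median log2 difference, mean of KO 1 and WT 1 minus mean of the other 7, was −0.10 for genes with up to 1924 exon bases, 0.31 from 1925 to 3765 bases, 0.12 from 3766 to 6135 bases and −0.09 for longer genes. Of the members with both libraries above the other 7, *Cd9* (2044 bases), *Cd81* (2879), *Cd82* (3005) and *Tspan13* (2474) fall in the second class, in which 45.7% of genes did the same, and *Cd53* (1742) in the first, with 34.6%. *Tspan32* (6234), which had both below, falls in the last class, in which 36.8% of genes did the same. *Cd37* (3522) and *Cd151* (2741) are in the second class and did neither. These values describe 1 library of each genotype against the rest, and genes are not independent replicates.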
